A study of Mus musculus with 24 samples.

Results

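Genes whose damaging variants raise the risk of autism or intellectual disability were followed in the RNA of mouse striatum. The list was chosen by symbol and holds 36 of the 37289 genes in the deposited RNA data, and every one of the 36 passed the filter on low counts that left 15955 genes for testing. By their known roles, 20 are chromatin and transcription regulators, 10 act in signalling, ubiquitin transfer or translation, and 6 are neuronal channel, adhesion or membrane scaffold genes. The study crossed a genotype with a prenatal exposure in female C57BL/6 mice. The 4 groups, of 3 mice each, were wild-type control, Cntnap2 heterozygous (het) control, wild-type stressed and het stressed. Stressed offspring came from dams that met varying stressors over 7 days beginning on embryonic day 12.5, controls from dams without that exposure, and both kinds of litter held wild-type and het embryos. All offspring were ear-tagged on postnatal day 12 and weaned on day 18. The labels name neither the age at death nor the Cntnap2 allele nor the number of dams. Mice of a group may therefore be littermates, and the p-values reflect only the spread among these 12 animals. In punched tissue, fewer cells of a type and less RNA per cell cannot be told apart.

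The chromatin members set how DNA is packed and read: Chd8 and Chd2 are ATP-driven remodellers, Arid1b is a subunit of the BAF remodelling complex, Kmt2a and Kmt2c methylate histone H3 at lysine 4 and Kdm5b removes that mark. The signalling members restrain growth pathways (Tsc1 and Tsc2 hold back mTOR, Nf1 holds back Ras), tag proteins with ubiquitin (Cul3, Ube3a, Trip12) or control local translation (Fmr1). The neuronal members set excitability and wiring, as the sodium channels Scn1a and Scn2a, the L-type calcium channel Cacna1c, the adhesion molecule Dscam, the secreted guide of cell position Reln and the membrane scaffold Ank2 do. Spiny projection neurons, the main cell type of the striatum, express many of them, and Foxp1 is a transcription factor enriched in those neurons. Many of these genes, as large enzymes, channels and scaffolds, have long transcripts.

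Promoter windows from RefSeq (GRCm38.p6, 250 bases before to 50 after the start) are shown for the 3 members with the smallest p-values in the comparisons of groups, written 5′ to 3′ on the gene's strand with CG dinucleotides in capitals.
Bcl11a: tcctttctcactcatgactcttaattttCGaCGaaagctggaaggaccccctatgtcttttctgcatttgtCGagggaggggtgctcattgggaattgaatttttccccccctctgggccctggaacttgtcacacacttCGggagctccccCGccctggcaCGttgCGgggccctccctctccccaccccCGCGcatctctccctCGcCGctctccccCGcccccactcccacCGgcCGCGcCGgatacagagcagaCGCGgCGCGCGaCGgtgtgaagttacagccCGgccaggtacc
Dscam: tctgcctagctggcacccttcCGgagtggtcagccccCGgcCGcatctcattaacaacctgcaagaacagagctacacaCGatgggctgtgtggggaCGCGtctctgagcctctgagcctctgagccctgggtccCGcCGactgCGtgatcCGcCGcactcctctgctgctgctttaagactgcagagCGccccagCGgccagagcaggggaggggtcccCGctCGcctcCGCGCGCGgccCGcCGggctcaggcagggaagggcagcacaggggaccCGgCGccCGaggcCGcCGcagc
Scn1a: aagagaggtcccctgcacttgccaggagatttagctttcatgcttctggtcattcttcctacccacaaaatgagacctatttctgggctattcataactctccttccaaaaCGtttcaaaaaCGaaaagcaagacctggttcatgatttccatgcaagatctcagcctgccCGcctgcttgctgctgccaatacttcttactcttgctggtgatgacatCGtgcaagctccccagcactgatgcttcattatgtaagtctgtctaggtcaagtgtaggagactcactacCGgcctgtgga
They lie at chr11:24080445-24080744 on the plus strand, chr16:97170686-97170985 on the minus strand and chr2:66440788-66441087 on the minus strand. Bcl11a has 23 CG and Dscam 26, while Scn1a has 5. Of the 36 members 30 had at least 1 window, 45 windows in all. The median was 21 CG per window, from 1 (Setd5) to 61 (Med13l), against 7 over 32851 windows of all genes. At least 15 CG were found in 27 of the 45 windows (60%) and in 34.6% of all windows. Of 3 motifs searched on both strands, none of which contains another, the GC box GGGCGG was in 53.3% of the members' windows and 35.7% of all, TATAAA in 4.44% and 13.6%, and the ETS-type motif CCGGAAG in 13.3% and 8.86%. The windows of the other neuronal members ranged from 2 CG (Ank2) to 57 (Cacna1c), and both belong to genes with several starts. Chd2, Ash1l, Phf3, Auts2, Wac and Tcf4 were not matched.

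The RNA libraries held 13587154 to 24039706 expected counts, the estimated number of reads that RSEM assigned to genes, and the members' counts ran from 96 (Adnp) to 6801 (Ank2) in a library. Every het library (from 21410135) was deeper than every wild-type library (up to 18538304), so depth and genotype cannot be told apart beyond the scaling of library sizes. Cntnap2 itself stood at 39.7 to 68.3 TPM (a level scaled for transcript length and library depth) in wild-type and 35.97 to 59.5 in het libraries, and the overlap gives no check of the genotype labels. The spiny neuron genes Ppp1r1b (1109 to 2759 TPM), Penk (1636 to 3207), Drd1 (66.3 to 145) and Drd2 (45.4 to 201) were present in every library. Each was lowest in het control replicate 1 and highest in wild-type stressed replicate 3. Those libraries also had the lowest and the highest length slope, described below. Over 12 spiny neuron markers, the summed level was 6803 CPM in het control replicate 1 and 7988 to 11200 elsewhere. It was 10894.5 CPM in wild-type stressed replicate 3, and 8459 and 8715 in wild-type control replicates 1 and 3. The part of spiny neurons in the members' values was not tested. The summed level of 10 oligodendrocyte markers was 15810.3 to 18179.9 CPM in wild-type controls and 10520.1 to 15361 CPM in the other groups, so that it separated the wild-type controls from every other group, and its part in the members' values was not tested. Wild-type stressed replicate 2 goes against its female label: it held 50 counts of Xist, the RNA of the inactive X chromosome, while the other libraries held 2307 to 12463. The data of het control replicate 1 carry another animal number than its label. For the named members and the medians, values are also given without the libraries that moved them most.

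The libraries differed in how strongly long transcripts were represented, and the members followed that difference. For each library, the deviation of every gene from its mean log2 CPM (counts scaled to library size) over the 12 libraries was regressed on the log2 length of its longest transcript, leaving the members out, and the slope was taken as the library's length slope. It ran from -0.33 in het control replicate 1 and -0.27 in wild-type control replicate 1 to 0.26 in wild-type control replicate 3 and 0.27 in wild-type stressed replicate 3, and the other 8 lay between -0.076 and 0.13. The members' median deviation from their own means was -0.84, -0.55, 0.51 and 0.64 (log2) in those 4 libraries, and lay between -0.18 and 0.29 in the other 8, while that of all genes stayed within 0.022 of 0 in each library. In wild-type control replicate 1 none of the 36 members was above its mean, and in wild-type stressed replicate 3 all 36 were. Both extremes fall within groups, as the wild-type controls held the second lowest and the second highest slope. The slope also went with the replicate number. In every group replicate 3 had the highest slope. It was 0.26 in wild-type controls, 0.125 in het controls, 0.27 in stressed wild types and 0.070 in stressed hets. Replicate 1 had the lowest slope in every group but the stressed hets. Whether the number marks a batch was not tested. The slopes of the 3 het stressed libraries (-0.00021 to 0.070) were the closest together of any group.

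**Figure D1:**
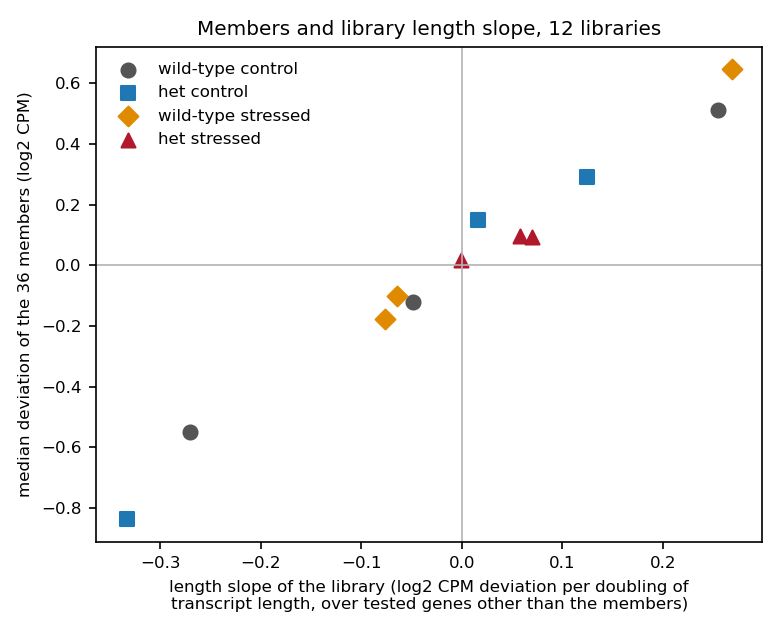
Median deviation of the 36 members from their own means (log2 CPM, vertical axis) against the length slope of the library, taken over genes other than the members (horizontal axis), with 1 point for each of the 12 libraries and the 4 groups by colour and shape. The libraries with the lowest and the highest slopes (-0.33 and 0.27) also have the lowest and the highest member medians (-0.84 and 0.64).

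The span of a gene is its mean log2 CPM in the 2 libraries of highest slope minus that in the 2 of lowest slope. All 36 members had a positive span, with a median of 1.26, against -0.0077 over all tested genes. It was smallest for Wac (0.26), an adaptor of histone H2B ubiquitination, the kinase Dyrk1a (0.44) and Bcl11a (0.47). It was largest for Med13l (2.13), a part of the Mediator kinase module, Kmt2a (2.11) and the H3 lysine 36 methyltransferase Ash1l (2.05), and reached 1.86 for Cacna1c. The median span was 1.31 for the chromatin, 1.14 for the signalling and 1.59 for the neuronal members. The highest library was 1 of the 2 with the highest slope for all 36 members (34.3% of all genes), and the lowest was 1 of the 2 with the lowest slope for 34 (38.1% of all genes), the exceptions being Dyrk1a and Naa15. The members' longest transcripts had a median of 7529.5 nucleotides, from 4409 (Fmr1) to 16901 (Kmt2c), against 3007 over all tested genes. When the tested genes were divided into 10 bins of equal size by transcript length, the bin of the longest, from 6241 nucleotides up, had a median span of 1.12 and held 27 of the members. The members' order was not that of their length: Kmt2c, with the longest transcript of the list, had a span of 1.71, and Scn1a (8386 nucleotides) one of 0.87. Within groups the SD of log2 CPM had a median of 0.46 over the members, and 0.18 once each library's linear trend with length was removed, with a smaller SD in 35 of 36. Over all genes it went from 0.31 to 0.25.

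**Figure D2:**
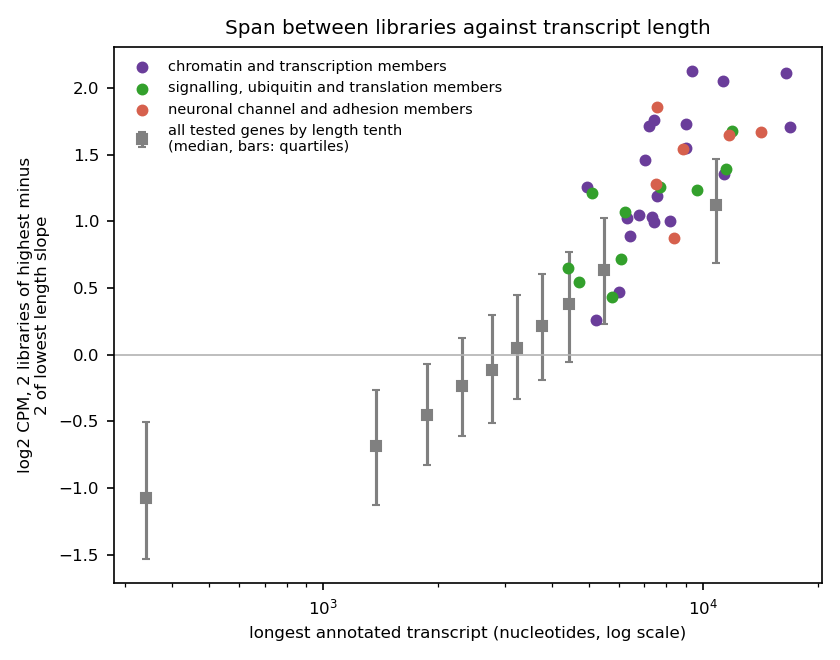
Span (log2 CPM, 2 libraries of highest minus 2 of lowest length slope, vertical axis) against the longest annotated transcript in nucleotides (log scale) for the 36 members, coloured by class, with the median and quartiles of all tested genes in 10 length bins in grey. The members run from 0.26 (Wac) to 2.13 (Med13l), and the grey median of the longest bin is 1.12.

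**Figure D3:**
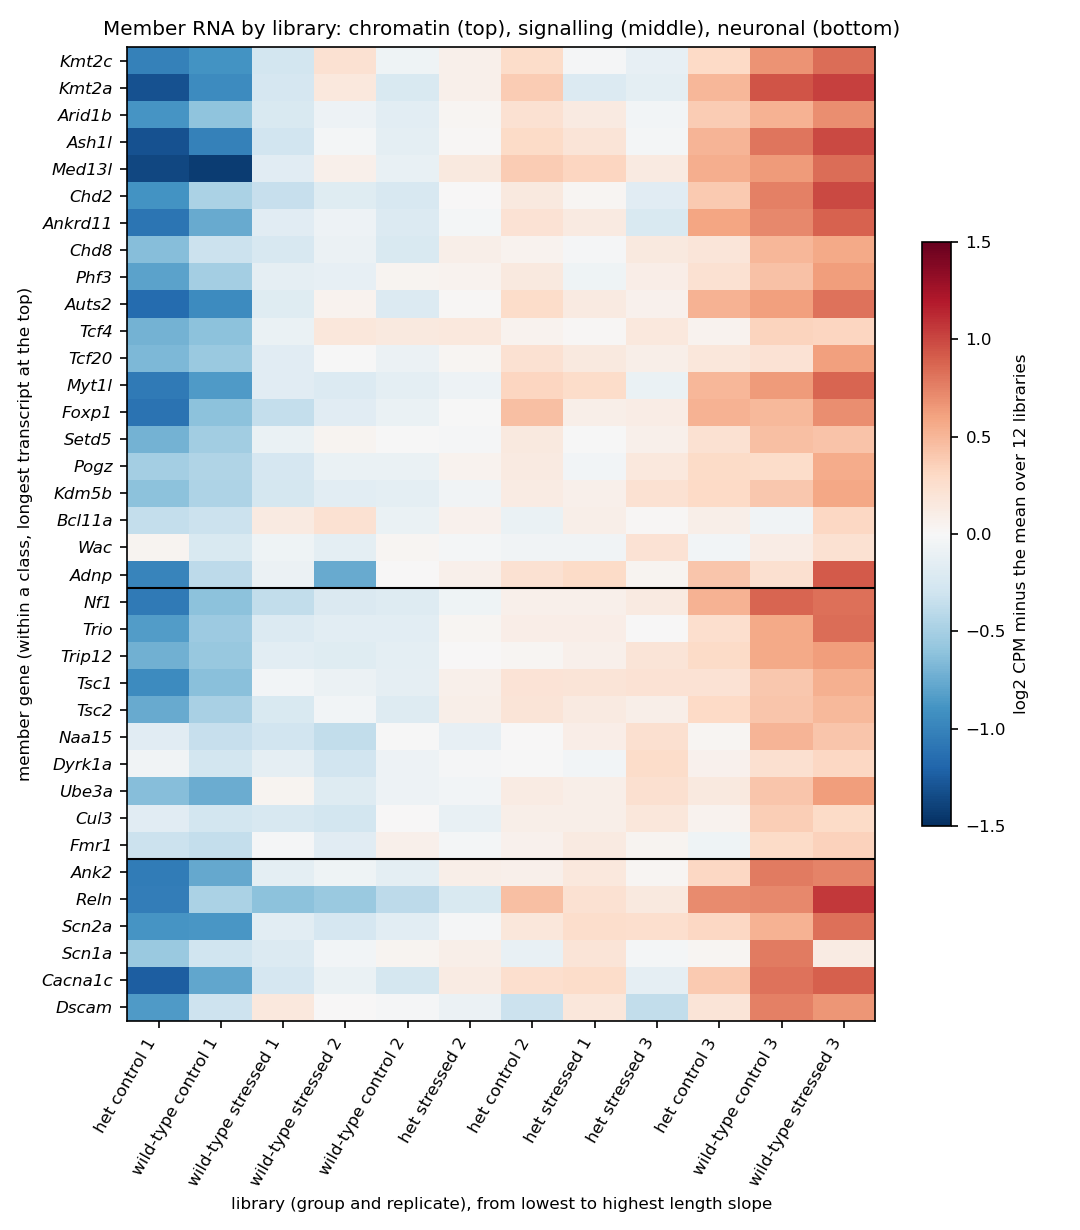
Deviation of each member (rows, by class and, within a class, from the longest transcript down) from its mean over 12 libraries (log2 CPM, colour), with libraries in columns from the lowest to the highest length slope. The outer columns on each side hold the deepest colours for most members, and Wac, Dyrk1a and Bcl11a change least across the row.

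Per transcript length, the members' mean levels over the 12 libraries ranged from 2.65 TPM for Dscam to 62.5 for Cul3, the scaffold of a family of ubiquitin ligases. Among the chromatin members Wac stood at 55.3 TPM, Foxp1 at 43.9, the neuronal repressor Myt1l at 36.6, Bcl11a at 22.7 and Tcf4, a basic helix-loop-helix factor, at 21.9. The lowest were Kmt2a (7.17), Kmt2c (6.72), Chd2 (5.83) and the homeodomain zinc finger Adnp (3.61). Of the signalling members, Tsc2 (17.2 TPM) and Fmr1 (16.2) followed Cul3, and Naa15, which helps to acetylate the ends of new proteins, was at 9.19 and Nf1 at 8.23. The neuronal members ran from Ank2 (50.5) and Scn2a (30.8) through Reln (17.4) and Scn1a (15.1) to Cacna1c (5.50) and Dscam. Single libraries overlapped between neighbours in this order: Foxp1 alone ran from 9.87 to 83.6 TPM, Cul3 from 41.9 to 91.2 and Kmt2a from 1.53 to 15.4.

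No member passed the test in any of the 8 comparisons (edgeR's quasi-likelihood test, adjusted p under 0.05 over 15955 genes): the genotype difference in controls and in stressed mice, the stress difference in each genotype, stressed hets against wild-type controls, the interaction, and a mean stress effect over both genotypes and a mean genotype effect over both prenatal conditions, called the stress average and the genotype average here. Of all genes tested, 0.00627% (1 gene) passed in each genotype comparison, in stressed hets against wild-type controls and in the genotype average, and 0% in the other 4. At an unadjusted p under 0.05, 1 of 36 members stood in the wild-type stress comparison (2.49% of all genes) and in the stress average (2.34%), Bcl11a both times. None did in the genotype comparison of controls (1.47% of all genes) or of stressed mice (0.57%), in the stress comparison of hets (1.12%), in stressed hets against wild-type controls (1.28%), in the interaction (1.33%) or in the genotype average (0.708%). DESeq2 also called 0 members in every comparison. A p above the threshold does not show equal levels. Counts were simulated for hets against wild types in controls, with 200 genes changed. The test recovered 16% of them at 2-fold and 88.5% at 4-fold. These genes were drawn at random from all tested genes, each with independent noise. The members varied more within groups (median SD of log2 CPM 0.46, against 0.31 over all genes), so their own recovery was not measured.

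After prenatal stress most members' mean levels were above the controls' in both genotypes, by little. In wild types the log2 fold change was above 0 for 33 of 36 members (48.8% of all genes), with a median of 0.16 against -0.0058 over all genes; in hets it was above 0 for 30 of 36 (50.5%), with a median of 0.11. All 20 chromatin members were above 0 in wild types (median 0.21) and 15 in hets (median 0.060). All 10 signalling members were above 0 in hets (median 0.13) and 8 in wild types (median 0.079), the exceptions being Naa15 and Cul3. Of the 6 neuronal members 5 were above 0 in each genotype, the exception being Scn1a in wild types and Reln in hets.

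With each library's length trend removed, 0 members passed the adjusted threshold in any of the 8 comparisons (0.0125% of all genes, 2 genes, in the genotype average, and at most 1 gene in each of the others). In that fit the members under an unadjusted p of 0.05 were Bcl11a and Scn1a for stress in wild types (3.53% of all genes), Bcl11a in the stress average (3.03%), Scn1a and Dscam for genotype in controls (2.07%), Dscam in the genotype average (0.99%) and Scn1a in the interaction (1.82%). There was none for stress in hets (1.13%), genotype in stressed mice (0.715%) or stressed hets against wild-type controls (1.75%).

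The medians under stress moved with the length slope and with single libraries. In the bin of genes with the longest transcripts, the median stress difference was 0.11 in wild types and 0.12 in hets, near the members' own. With each library's length trend removed, the members' median was 0.079 in wild types (28 of 36 above 0) and 0.0033 in hets (18 of 36), and with the slope as a covariate 0.042 and -0.048. Leaving out wild-type stressed replicate 3 turned the wild-type median to -0.17, and leaving out wild-type control replicate 3 raised it to 0.48. Without wild-type control replicate 1 it was -0.056, and it was 0.33 when replicate 1 of the stressed wild types was left out and 0.30 when replicate 2 was. The het median was -0.14 without het control replicate 1 and 0.29 when replicate 3 was left out instead.

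Bcl11a, a zinc finger transcription factor that also joins the BAF complex, gave 33.7, 39.1 and 40.7 CPM in wild-type controls, 32.8, 39.2 and 44.5 in het controls, 46.2, 49.2 and 52.2 in stressed wild types and 44.7, 43.9 and 42.7 in stressed hets. All 3 stressed wild types were above all 3 wild-type controls, as in 2.62% of all genes (3.17% had all stressed below all controls), and the stressed hets overlapped the het controls. The group means were 37.8 ± 3.67 CPM (SD, n = 3) in wild-type controls and 49.2 ± 3.01 in stressed wild types, a log2 fold change of 0.38 ± 0.14 (SE; edgeR adjusted p = 0.99992). It was 0.17 ± 0.13 in hets (0.060 without het control replicate 1 and 0.28 without replicate 3 of that group) and 0.27 ± 0.095 in the stress average (edgeR adjusted p = 0.975). With the length trend removed the wild-type value was 0.31 ± 0.11, and without wild-type stressed replicate 2 it was 0.38. Summed levels of several marker lists also lay apart between wild-type controls and stressed wild types. Choroid plexus markers (8 of 8 tested, with Kcne2, Slc4a5 and Cldn2 at 0 in at least 1 library) summed to 247 to 588 and 13.6 to 34.7 CPM, microglia markers to 573 to 749.6 and 505 to 571, and interneuron markers to 1133 to 1409 and 1032 to 1131, beside the oligodendrocyte markers above. Their part in the Bcl11a difference was not tested. The stressed hets were also above all wild-type controls (3.64% of all genes) and below all stressed wild types (2.11%), and no other member's groups were apart in any of the 5 pairwise comparisons. Of all genes, 1.44% were apart with hets higher and 1.95% with hets lower in controls, 3.08% with hets higher in stressed mice, 3.97% with stressed higher and 2.71% with stressed lower in hets, and 2.66% with stressed hets below wild-type controls. The interaction for Bcl11a was -0.21 ± 0.19 (edgeR adjusted p = 0.99997; -0.32 without het control replicate 1 and -0.097 without its replicate 3), so a difference between the genotypes' stress responses was not shown.

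Other chromatin members with the smallest p-values under stress had wider spreads. Tcf4 gave 44.7, 76.3 and 86.9 CPM in wild-type controls, 42.02, 71.4 and 71.3 in het controls, 63.9, 77.3 and 85.97 in stressed wild types and 69.2, 76.4 and 76.9 in stressed hets. Its stress average was 0.20 ± 0.18 (edgeR adjusted p = 0.975), and in each genotype the control group held a replicate 1 far below its other libraries. The average was 0.081 without the wild-type one and 0.093 without the het one. Tcf20, a nuclear coregulator, gave 61.3, 84.6 and 104 CPM in wild-type controls, 56.3, 106 and 101 in het controls, 79.98, 89.5 and 138 in stressed wild types and 99.3, 91.5 and 96.02 in stressed hets. Its wild-type stress difference of 0.30 ± 0.28 came with 1 stressed wild type, replicate 3, above all wild-type controls and the other two within their range. Without that library it was 0.024, and without wild-type control replicate 3 it was 0.49.

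Among the signalling members, Tsc1, which with Tsc2 holds back mTOR, gave 38, 53.6 and 78.2 CPM in wild-type controls, 30.5, 67.9 and 68.3 in het controls, 57.2, 55.2 and 85.5 in stressed wild types and 67.6, 61.9 and 68.3 in stressed hets. The stress average was 0.23 ± 0.23 (edgeR adjusted p = 0.975), and the ranges overlapped in both genotypes. Leaving out het control replicate 1 gave 0.088 and leaving out wild-type control replicate 3 gave 0.38. Ube3a, a ubiquitin ligase that neurons express from the maternal allele, gave 19.5, 31.1 and 43.6 CPM in wild-type controls, 20.9, 35.6 and 36.3 in het controls, 33.6, 28.5 and 50.5 in stressed wild types and 34.9, 31.8 and 38.7 in stressed hets. Only stressed wild-type replicate 3 exceeded all wild-type controls, and the stress average was 0.22 ± 0.22, or 0.077 without that library, 0.11 without het control replicate 1 and 0.37 without wild-type control replicate 3. Fmr1, the RNA-binding translational repressor lost in fragile X syndrome, gave 27.1, 36.6 and 42.2 CPM in wild-type controls, 27.7, 36.3 and 33.2 in het controls, 34.2, 30.9 and 43.8 in stressed wild types and 38.1, 33.9 and 35.6 in stressed hets. Its stress difference was 0.15 ± 0.19 in hets, where the lowest control, replicate 1, again had the lowest length slope, and 0.042 without that control.

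The sodium channel gene Scn2a gave 71.1, 116 and 186 CPM in wild-type controls, 70.6, 146 and 161 in het controls, 116, 109 and 229 in stressed wild types and 156, 128 and 154 in stressed hets. Its groups overlapped, with a stress average of 0.25 ± 0.29 (edgeR adjusted p = 0.975). That average was 0.033 without wild-type stressed replicate 3, 0.11 without het control replicate 1 and 0.45 without wild-type control replicate 3. Scn1a, the sodium channel best known from fast-spiking interneurons and the epilepsy of Dravet syndrome, gave 60.8, 77.3 and 128 CPM in wild-type controls, 50.95, 69.3 and 76.6 in het controls, 64.9, 72.7 and 81.3 in stressed wild types and 85.5, 79.7 and 73.7 in stressed hets. Its highest value was wild-type control replicate 3, and the stress difference was -0.28 ± 0.25 in wild types and 0.28 ± 0.25 in hets. Without that library the wild-type value was 0.075, and without het control replicate 1 the het value was 0.12. The interaction was 0.56 ± 0.35 (edgeR adjusted p = 0.99997), and 0.45 ± 0.17 with the length trend removed (edgeR adjusted p = 0.99995). It was 0.19 without wild-type control replicate 3.

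**Figure D4:**
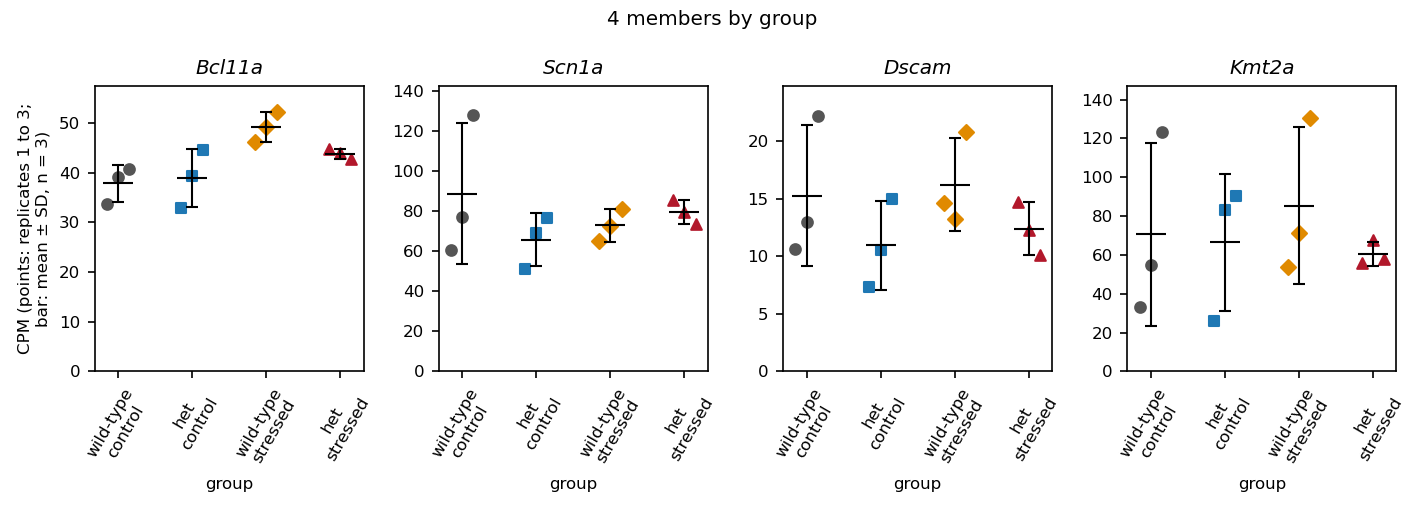
CPM in each library (points, replicates 1 to 3 from left to right) with the group mean and SD (bars, n = 3) for Bcl11a, Scn1a, Dscam and Kmt2a, on axes that start at 0. For Bcl11a the stressed wild types (46.2 to 52.2) lie above the wild-type controls (33.7 to 40.7), while for the other 3 members the groups overlap.

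Between genotypes, most members had a lower mean level in hets in stressed mice, by little, while in controls the members were divided nearly as all genes were. In stressed mice the log2 fold change was below 0 for 31 of 36 members (51.2% of all genes; median -0.10) and for 19 of the 20 chromatin members (median -0.13), Wac being above 0. In controls it was below 0 for 20 of 36 (49.3%; median -0.033), with medians of 0.0085 for the chromatin (12 of 20 above 0), -0.081 for the signalling and -0.16 for the neuronal members. Removing the length trend brought the medians to -0.049 in stressed mice and 0.050 in controls. The stressed median was 0.21 without wild-type stressed replicate 3 and -0.23 when replicate 2 was left out instead, and the control median went from -0.27 with wild-type control replicate 1 left out to 0.27 with replicate 3 left out. Omitting het control replicate 1 gave 0.21, and omitting replicate 3 of that group -0.22.

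Dscam, an adhesion molecule that keeps like neurites apart, had the largest genotype average of the list in size, at -0.43 ± 0.23 (edgeR adjusted p = 0.9999). It gave 10.6, 12.95 and 22.2 CPM in wild-type controls, 7.30, 10.5 and 14.97 in het controls, 14.6, 13.2 and 20.8 in stressed wild types and 14.7, 12.3 and 10.1 in stressed hets. The het means were lower in both prenatal conditions, with differences of -0.48 ± 0.33 in controls and -0.39 ± 0.32 in stressed mice (log2), and the ranges overlapped in both. The control difference was -0.11 without wild-type control replicate 3, and among het controls -0.26 with replicate 1 omitted and -0.77 with replicate 3 omitted, and the stressed one -0.18 without wild-type stressed replicate 3. With the length trend removed the genotype average was -0.38 ± 0.12 (edgeR adjusted p = 0.99998). Without that step the genotype average stayed below 0 when any 1 library was left out, from -0.58 to -0.26, the latter without wild-type control replicate 3, and was -0.50 without wild-type stressed replicate 2.

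For Scn1a the genotype difference in controls was -0.44 ± 0.25 (edgeR adjusted p = 0.99999), and -0.32 ± 0.12 with the length trend removed (edgeR adjusted p = 0.99995). Without het control replicate 1 it was -0.28, and without wild-type control replicate 3 it was -0.078. The latter library also held the most thalamic marker RNA: its summed level of the 8 thalamic markers was 197 CPM, against 64.3 to 113 in the other 11 libraries, with Prkcd at 53.0 TPM against 5.32 to 14.4. The thalamic sum lay apart between the control groups, at 84.1 to 197 and 64.3 to 78.3 CPM. The 8 interneuron markers summed to 1133 to 1409 CPM in wild-type and 1027 to 1172 in het controls, which overlap. Of them Pvalb, the marker of the fast-spiking interneurons, which was named after its values were seen, was at 237 to 412 TPM in wild-type controls and 109 to 173 in het controls, ranges that do not overlap. By CPM, 1.95% of all genes lay apart in controls with hets lower. In stressed mice Pvalb overlapped, at 31.7 to 177 TPM in wild types and 137 to 222 in hets. The highest Pvalb value (412 TPM) was in wild-type control replicate 3, where Scn1a was also the highest of all libraries (128 CPM). In het controls both rose from replicate 1 to replicate 3, while in the other groups their orders differed. Pvalb was lowest in wild-type stressed replicate 3, where Scn1a was the highest of that group (81.3 CPM). That library also had the highest length slope (0.27). The part of other cells in the Scn1a values was not tested.

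Kmt2a showed how wide the spread of the long members was: it gave 33.3, 54.9 and 124 CPM in wild-type controls, 25.9, 83.2 and 90.2 in het controls, 53.9, 71.5 and 131 in stressed wild types and 55.6, 67.5 and 58.1 in stressed hets. The genotype difference in stressed mice, -0.50 ± 0.53, was smaller than its standard error (edgeR adjusted p = 0.99992), and was -0.066 without wild-type stressed replicate 3. Chd2 gave 21.4, 25.3 and 50.3 CPM in wild-type controls, 16.05, 33.2 and 39.3 in het controls, 23.5, 26.4 and 59.2 in stressed wild types and 30.4, 29.9 and 26.5 in stressed hets. Its genotype average of -0.23 ± 0.31 came with a replicate 3 far above the other libraries in both wild-type groups. Leaving out that of the controls gave -0.0047, that of the stressed 0.036, and leaving out het control replicate 1 gave -0.087. Chd8, among the genes most often hit by new variants in autism, gave 48.5, 51.8 and 85.4 CPM in wild-type controls, 38.9, 62.7 and 68.9 in het controls, 51.4, 56.8 and 89.6 in stressed wild types and 60.03, 64.6 and 66.98 in stressed hets. The genotype difference in controls was -0.12 ± 0.28, and het control replicate 1 and wild-type control replicate 3 were the outer libraries, without which it was 0.088 and 0.18.

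In the signalling class, Trio, which shapes neurites, gave 49.4, 64.4 and 107 CPM in wild-type controls, 40.3, 77.4 and 86.1 in het controls, 62.5, 64.8 and 128 in stressed wild types and 77.2, 73.8 and 72.7 in stressed hets. Its genotype difference in stressed mice was -0.19 ± 0.37, with 1 high wild-type library, replicate 3, without which it was 0.22; it was -0.36 without replicate 2. Cul3 gave 78.5, 95.6 and 122 CPM in wild-type controls, 84.7, 101 and 98.2 in het controls, 80.7, 78.6 and 116 in stressed wild types and 101, 88 and 107 in stressed hets. The difference was 0.11 ± 0.20 in stressed mice, where all 3 hets lay between the lowest and the highest wild type. Omitting replicate 2 of the stressed wild types gave 0.0082, and omitting their replicate 3 0.30. Naa15 gave 29.9, 37.7 and 54.1 CPM in wild-type controls, 33.9, 38.2 and 38.8 in het controls, 31.2, 29.5 and 50.7 in stressed wild types and 40.7, 34.9 and 44.96 in stressed hets. Its genotype difference was -0.13 ± 0.25 in controls, and its interaction 0.25 ± 0.35 (edgeR adjusted p = 0.99997). With wild-type control replicate 3 left out they were 0.12 and -0.025, and with wild-type stressed replicate 3 left out the interaction was 0.52. Dyrk1a, the kinase whose dose is raised in Down syndrome, gave 37.7, 43.4 and 54.02 CPM in wild-type controls, 44.2, 45.8 and 47.8 in het controls, 41.8, 37.6 and 56.6 in stressed wild types and 44.5, 45.4 and 55.2 in stressed hets. Its values overlapped between all groups, and stressed hets differed from wild-type controls by 0.10 ± 0.18, or -0.012 without het stressed replicate 3 and 0.24 without wild-type control replicate 3.

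Reln, made in the adult by interneurons, gave 38.3, 40.5 and 88.1 CPM in wild-type controls, 26.01, 73.2 and 87.2 in het controls, 34.9, 36.2 and 111 in stressed wild types and 62.5, 45.5 and 59.04 in stressed hets. The interaction was -0.29 ± 0.76 with groups that overlap (edgeR adjusted p = 0.99997), and was -0.79 without wild-type control replicate 3 and 0.47 without wild-type stressed replicate 3. With limma-voom and sample weights, which give less weight to libraries that stand apart, the genotype difference of Reln in controls was 0.83 (adjusted p = 0.0493), the 1 member call of any alternative. By that method 983 genes (6.16%) were called in the comparison, and edgeR called 1.

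Stressed hets against wild-type controls carry both factors. The members' median was 0.037, with 24 of 36 above 0 (49.3% of all genes), and 0.022 with the length trend removed. The smallest p-values were those of Bcl11a (0.21 ± 0.13, edgeR adjusted p = 0.99999) and Dscam (-0.30 ± 0.32), followed within their classes by Tcf20 (0.20 ± 0.28), Tsc1 (0.22 ± 0.33) and Scn1a (-0.16 ± 0.25). With wild-type control replicate 3 left out the values were 0.056 for Dscam, 0.37 for Tcf20, 0.51 for Tsc1 and 0.19 for Scn1a, and the median was 0.38. With wild-type control replicate 1 left out, Bcl11a was at 0.13, Tcf20 at 0.016 and the median at -0.17. In the interaction, the stress difference in hets minus that in wild types, the chromatin members had a median of -0.19 with 17 of 20 below 0 (51.8% of all genes), the signalling members 0.051 with 3 of 10 below 0, and the neuronal members 0.0033 with 3 of 6. The median over all members went from -0.35 without wild-type control replicate 3 to 0.24 without wild-type stressed replicate 3. These comparisons share control samples, so the members' directions in them are not independent.

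**Figure D5:**
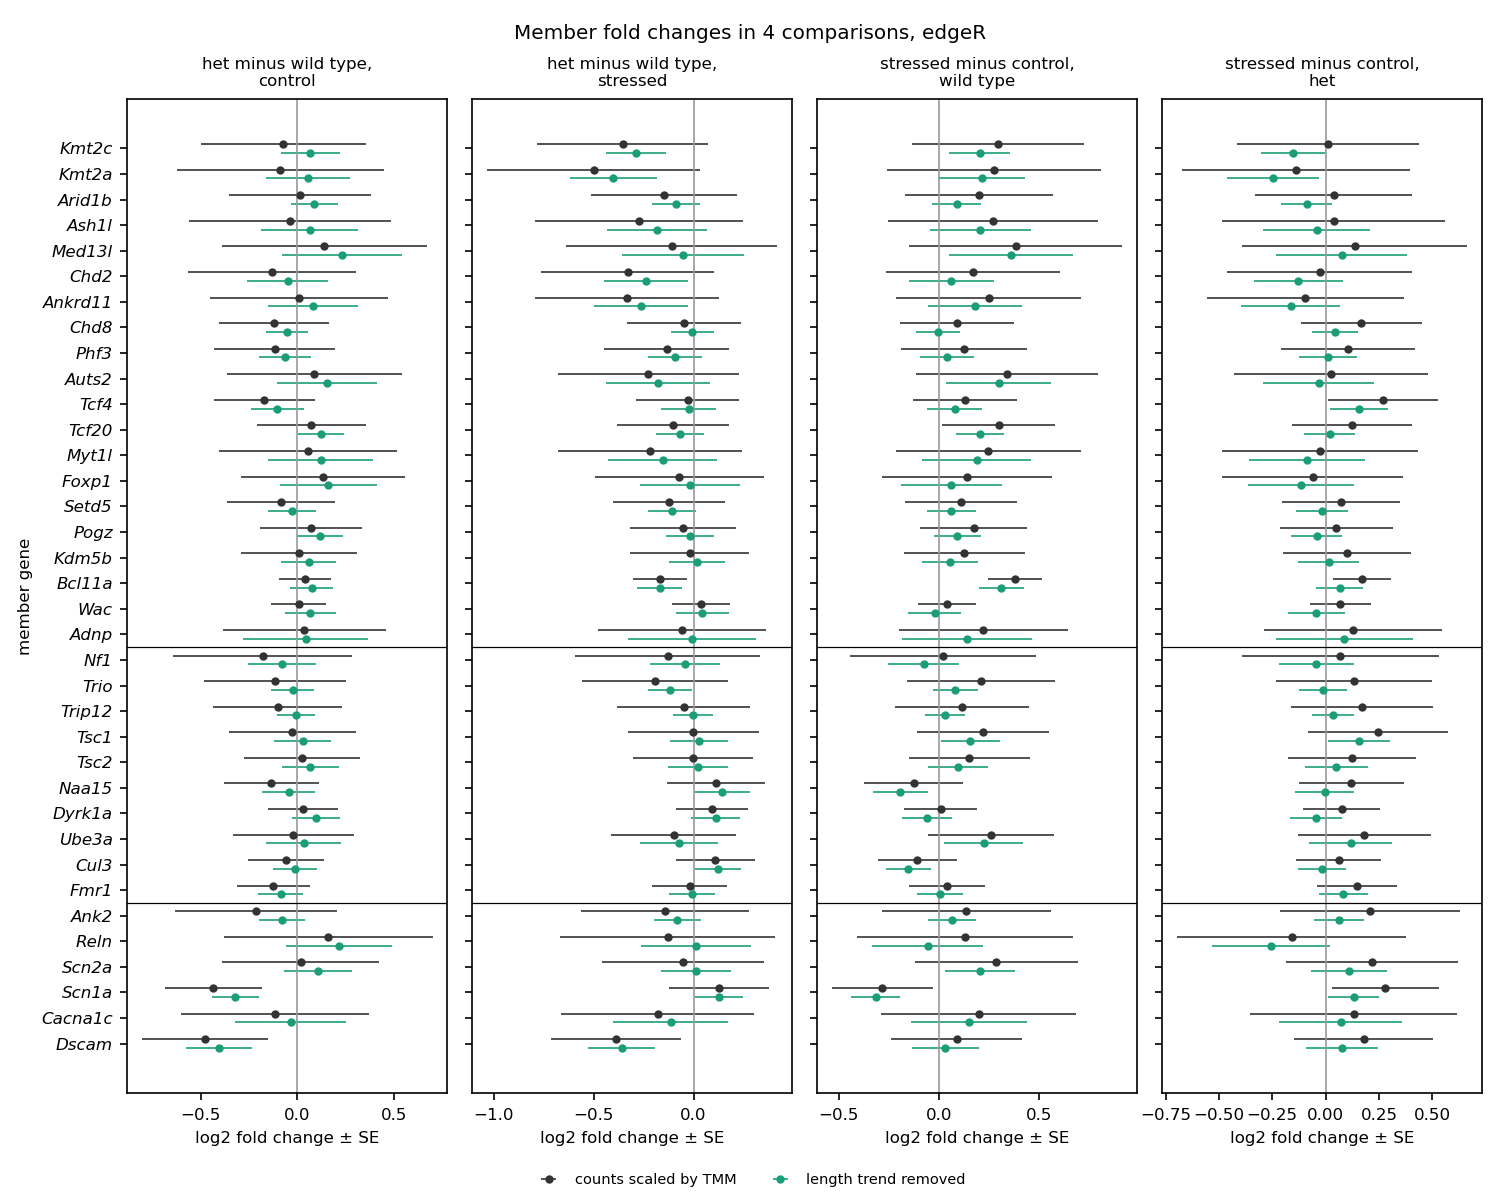
Log2 fold change (points) with its SE (bars) of the 36 members in 4 comparisons, for counts scaled by TMM (black) and with each library's length trend removed (green), on axes that differ between panels. Bars shorten once the trend is removed, and no member passes the adjusted threshold in either fit.

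Other genes of the same kinds and pathways were read beside the members. In the stress and genotype averages 0 genes of the 11 lists passed edgeR's adjusted threshold, and 0 of their 161 genes were under an unadjusted 0.05 (2.34% of all genes in the stress and 0.708% in the genotype average). With the length trend removed, those under it included Mef2c and Ddit4 in the stress average (both above 0; 3.03% of all genes) and Asxl3 in the genotype average (below 0; 0.99%). Of 40 other chromatin risk genes, 37 were above 0 in the stress average (median 0.16; 49.9% of all genes), and 35 were below 0 in the genotype average (median -0.10; 49.7% of all genes). These values are without removal of the length trend. In the bin of genes with the longest transcripts, the median was 0.12 in the stress average and -0.070 in the genotype average. Among the smallest p-values in this list were those of Mef2c, a neuronal activity-dependent factor (0.32 ± 0.16 in the stress average, edgeR adjusted p = 0.975), the deacetylase Hdac4 (0.49 ± 0.31), and, in the genotype average, Asxl3 (-0.51 ± 0.35). Of 40 other signalling and synaptic risk genes, 37 were above 0 in the stress average (median 0.15), with Camk2a, the synaptic calcium kinase, at 0.32 ± 0.18. With the length trend removed the stress medians of these lists were 0.085 and 0.087, against 0.033 for the members.

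The partners of single members were read in the same way. In the stress average 12 of 16 BAF complex genes were above 0 (median 0.10; Bcl7a 0.18 ± 0.098, Ss18l1 0.12 ± 0.083). Of the 13 core subunits of KMT2 complexes 10 were above 0 (median 0.030; Rbbp5 0.14 ± 0.12, Dpy30 -0.29 ± 0.31), and 12 were below 0 in the genotype average (median -0.048; Kdm6a 0.079 ± 0.11, Hcfc1 -0.18 ± 0.26). The Mediator kinase module had 5 of 6 above 0 under stress (Cdk8 0.12 ± 0.11, Med12l 0.14 ± 0.18). Of 17 genes of the TSC-mTOR and Ras pathways 11 were above 0 (median 0.023), with the mTOR inhibitor Ddit4 at 0.18 ± 0.13 and Rheb, the GTPase that Tsc2 switches off, at -0.17 ± 0.15. FMRP partners had 7 of 8 above 0 (Cyfip1 0.13 ± 0.12, Nufip2 0.19 ± 0.19), and ubiquitin partners 6 of 9 (Klhl3 0.37 ± 0.26, Kbtbd7 0.11 ± 0.12). All 9 calcium channel partners (median 0.15; Cacnb3 0.18 ± 0.11, Cacna2d1 0.17 ± 0.14) and all 6 reelin pathway genes (median 0.15; Fyn 0.15 ± 0.12, Dab1 0.14 ± 0.13) were above 0, as were 7 of 10 sodium channel and ankyrin partners (Fgf14 0.18 ± 0.10, Scn3b 0.13 ± 0.11). These counts and medians are without removal of the length trend. With it removed, the stress averages named here became smaller in size, except those of Ddit4 (0.25) and Rheb (-0.23). Med12l was then at -0.014, Cacna2d1 at 0.029, Dpy30 at -0.062 and Dab1 at 0.066.

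In the genotype average the BAF list had a median of -0.0061 (Arid2 -0.18 ± 0.22, Actl6b 0.088 ± 0.12), the Mediator kinase module -0.022 (Med12 -0.19 ± 0.36, Ccnc 0.084 ± 0.17) and the TSC-mTOR and Ras list 0.016 (Rps6kb1 -0.083 ± 0.12). It was -0.023 for FMRP partners (Fxr2 -0.11 ± 0.11, Map1b -0.29 ± 0.39), -0.012 for ubiquitin partners (Keap1 0.060 ± 0.072, Bap1 0.085 ± 0.11) and -0.026 for the other signalling and synaptic risk genes (Cacna1d -0.24 ± 0.23). For the sodium channel and ankyrin partners it was -0.044 (Ank1 -0.42 ± 0.35, Scn3b 0.090 ± 0.11), for the calcium channel partners 0.018 (Cacna2d1 0.17 ± 0.14) and for the reelin pathway -0.053 (Lrp8 -0.17 ± 0.17, Crk 0.051 ± 0.095).

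Whether the length difference between libraries also reached the transcripts of a single member was read from the deposited transcript estimates. For the 31 members with at least 2 annotated transcripts, the share of the gene's TPM from transcripts at least as long as its median transcript averaged from 12.6% (Ank2) to 100% (Tcf20), with a median of 85.8% over members. It was higher in the 2 libraries of highest length slope than in the 2 of lowest slope for 13 of 31, with a median difference of -2.16 percentage points. The share was higher for Cul3 (44.7% in the lowest and 74.9% in the highest pair), Reln (47.3% and 74.7%), Tsc2 (5.73% and 28%) and Bcl11a (45% and 63.2%). It was lower for Ube3a (75.4% and 44.3%), Fmr1 (92.5% and 61.6%) and Tcf4 (84.99% and 63.4%). These 7 were named after their values were seen. By group, the share for Cul3 was 57.9% ± 12.03 (SD, n = 3) in wild-type controls, 58.8% ± 11.6 in het controls, 77.3% ± 7.19 in stressed wild types and 67.4% ± 0.885 in stressed hets. For Bcl11a the group means lay between 51.1% ± 8.95 and 57.5% ± 8.41, a difference within the spread of either group. The median transcript ran from 640.5 nucleotides (Cul3) to 11323 (Ank2), so a short transcript counted as long for some members. For Ube3a, with 2 transcripts, the median was 5003.5 and the longest 5097 nucleotides. For Tsc2 they were 6114 and 6228, and its transcript with the most TPM had 6018. The shares of these 2 genes therefore mostly divide transcripts of nearly equal length. The transcript with the most TPM had 1476 nucleotides for Arid1b, the length of its median transcript. For Reln it had 891 nucleotides, while the longest has 11702. No test was run on these shares, which rest on the estimated division of reads between overlapping transcripts.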

How the data were processed

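RNA from striatal punches of 12 mice was sequenced from random-primed libraries, per the labels' protocols. Per the submitters' processing notes, the authors used RSEM and Bowtie with mm9 (NCBIM37), and give no versions. The deposited files give 1 expected count and 1 TPM per gene and per transcript for each library, per the file headers, with no pooling. Members were matched by symbol through their Ensembl gene identifiers. Strand use is not stated, so antisense or overlapping genes cannot be told apart.

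In R 4.3.3, edgeR 4.0.16 was run on the rounded expected counts, with its filterByExpr, TMM scaling and quasi-likelihood fit (glmQLFit, robust; glmQLFTest) over 4 group means. P-values were adjusted by Benjamini-Hochberg over 15955 genes within each of 8 contrasts, with two-sided calls at 0.05. The fit's biological coefficient of variation came to 0.256, and SEs were taken from the F statistic. The length trend was removed as an offset per library, or the slope was entered as a covariate. Alternatives used DESeq2 1.42.0 and limma 3.58.1 (voom with sample weights) on counts, and limma-trend on log2 TPM with pseudocounts of 1 and 0.1. The fit was tested on simulated data, where it made 1 false call at 2-fold (15819 genes fitted) and 12 at 4-fold (15800 genes fitted).

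Members and gene lists were chosen with earlier results of these data known. Values per library are given for the 2 members of each class with the smallest p in a comparison, and for the lists the 2 genes with the smallest p in each average, some of which are not reported here. The main fits do not pair the mice by replicate number. Same-numbered libraries' deviations from their group means correlated from -0.26 to 0.67. Of 12 libraries, 8 correlated best with a library of their own number. Whether the number marks pairs or a batch was not tested. The 5hmC data were not analysed here, as linking their mm9 regions to genes needs an annotation not used here.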

Additional observations from a re-analysis of the deposited data

How the results depend on the processing

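The count of members called stayed at 0 in all 8 comparisons under every alternative run, including leaving out each of the 12 libraries, except limma-voom with sample weights, which called 1 member in the control genotype comparison. The members' medians changed sign in several settings. As single libraries were left out, the median ranged from -0.27 to 0.27 for the genotype difference in controls, -0.24 to 0.21 in stressed mice, -0.17 to 0.48 for stress in wild types, -0.14 to 0.29 in hets, -0.17 to 0.38 for stressed hets against wild-type controls, -0.35 to 0.24 for the interaction, -0.038 to 0.30 for the stress average and -0.18 to 0.09 for the genotype average. Without the 2 libraries of lowest length slope (het control replicate 1 and wild-type control replicate 1), the stress average's median was -0.12, and limma-voom with sample weights gave a genotype average of 0.22. On log2(TPM + 1) the stress average's median was 0.30, while the median of all genes moved to 0.12; on log2(TPM + 0.1) they were 0.33 and 0.16. With a replicate block the stress average's median was 0.19 and the genotype average's -0.028; the block changed no call, 8 of 12 libraries correlated best with a library of their own number, and with block and length slope together the stress average's median was -0.014. The length slope's range over libraries was 0.60, 0.66 with mean transcript lengths and 0.66 over genes above 10 TPM.

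Of 558 single-member values under other alternatives, 28 changed sign. Of these, 12 came from limma-voom with sample weights. Chd8 was at 0.26 and Naa15 at 0.011 for het minus wild type in controls. Trio was at 0.18 for het minus wild type in stressed mice. Tsc1 was at -0.023 for stressed minus control in hets. Scn1a was at 0.043 for het stressed minus wild-type control. Scn2a was at -0.0071 and Ube3a at -0.0043 for the stress average. Chd2 was at 0.27, Fmr1 at 0.038, Kmt2a at 0.23, Scn1a at 0.029 and Trio at 0.22 for the genotype average. Others changed without the 2 libraries of lowest length slope. Dscam was at -0.047 and Tsc1 at -0.051 for stressed minus control in hets. Dyrk1a was at -0.010 for het stressed minus wild-type control. Dscam was at -0.076, Scn2a at -0.028, Tcf4 at -0.022, Tsc1 at -0.020 and Ube3a at -0.010 for the stress average. Trio, Scn1a and Reln changed on log2(TPM + 1). Trio was at 0.0055 for het minus wild type in stressed mice. Scn1a was at 0.14 for het stressed minus wild-type control. Reln was at 0.30 for the interaction. The same 3 changed on log2(TPM + 0.1). Trio was at 0.018 for het minus wild type in stressed mice. Scn1a was at 0.16 for het stressed minus wild-type control. Reln was at 0.34 for the interaction. With replicate block and length slope, Dscam changed in 2 comparisons. Dscam was at -0.072 for stressed minus control in hets. Dscam was at -0.059 for the stress average. Of 576 values with 1 library left out, 28 changed sign, with these ranges over the libraries left out (log2). Chd8 ranged from -0.28 to 0.18, Fmr1 from -0.28 to 0.020, Naa15 from -0.31 to 0.12 and Tcf4 from -0.41 to 0.041 for het minus wild type in controls. Trio ranged from -0.37 to 0.22 for het minus wild type in stressed mice. Scn1a ranged from -0.49 to 0.075, Scn2a from -0.14 to 0.69, Tsc1 from -0.0087 to 0.52 and Ube3a from -0.015 to 0.57 for stressed minus control in wild types. Dscam ranged from -0.046 to 0.48 and Tsc1 from -0.050 to 0.42 for stressed minus control in hets. Dscam ranged from -0.50 to 0.056, Dyrk1a from -0.012 to 0.24 and Scn1a from -0.37 to 0.19 for het stressed minus wild-type control. Cul3 ranged from -0.023 to 0.36, Kmt2a from -1.10 to 0.020, Naa15 from -0.025 to 0.52 and Reln from -0.79 to 0.47 for the interaction. Chd2 ranged from -0.36 to 0.036, Fmr1 from -0.15 to 0.0024, Kmt2a from -0.46 to 0.037, Scn1a from -0.26 to 0.018 and Trio from -0.27 to 0.050 for the genotype average. The cause of these changes was not tested.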
